A study of Rattus norvegicus with 6 samples.

Results

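The annexin genes Anxa1, Anxa2, Anxa3, Anxa4, Anxa5, Anxa6, Anxa7, Anxa8, Anxa9 and Anxa11 were followed in rat liver after faecal transplantation. These 10 genes were taken by their symbols out of 30957 in the expression table. The family was chosen by its name after the counts of these same 6 livers, and the difference between their groups, were known, so its differences are given as a description and not as tests. Liver RNA was sequenced from 3 of the 6 rats of each group, and each library came from 1 rat. Rats shared cages, and the cage of each sequenced rat is not given in the sources used here. All recipients were female Sprague Dawley rats bought at 3 weeks of age and given 3 courses of antibiotics of 7 days each, which makes them pseudo germ-free. For 14 days, t-PBS rats were then gavaged daily with a pooled faecal suspension from donors injected with PBS, and t-DHEA rats with one from donors injected with dehydroepiandrosterone (DHEA, an androgen precursor) at 6 mg per 100 g bodyweight. Because donor faeces were pooled, other differences between the pools cannot be told apart from the DHEA treatment of the donors. The total count on genes lay between 12348511 and 14316886. All 10 hepatocyte markers listed passed the filter for low counts, and 0 of them met the study's thresholds for a difference between the groups.

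Annexins are proteins that bind negatively charged membrane lipids when calcium rises, through a conserved core, while their N-terminal tails differ and bind partners of the S100 family. Annexin A1 is induced by glucocorticoids, restrains phospholipase A2 and signals through formyl peptide receptors to end inflammation. Annexin A2 joins with S100A10 and gathers plasminogen and its activator at the cell surface, annexin A5 covers exposed phosphatidylserine, and several annexins seal torn plasma membranes. In liver, annexin A6 is a protein of hepatocytes and other cells, whereas annexins A1 and A2 are mainly known from cells other than hepatocytes.

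Of the 10 genes, 8 had enough counts to be compared, and Anxa1 stood apart from the rest. It was lower in t-DHEA livers by 1.33 on the log2 scale (standard error 0.25, n = 3 livers per group). Anxa2, Anxa5, Anxa7 and Anxa3 had log2 fold changes between -0.47 and -0.23, and Anxa4, Anxa11 and Anxa6 had values between -0.056 and 0.052. The other genes, Anxa8 and Anxa9, were below the filter for low counts. The log2 fold change is that of t-DHEA over t-PBS in edgeR's count model, and a negative value is a lower expression in t-DHEA livers.

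Among the 8 genes compared, Anxa1 and Anxa2 had the largest differences, and Anxa11 had a log2 fold change near 0. The stretch just before the start of transcription is shown for Anxa1, Anxa2 and Anxa11. RefSeq held such a sequence for 9 of the 10 genes. Each is the 150 bases before the start in assembly GRCr8, which is a later build than that of the counts: chr1:227303733-227303882 on the minus strand, chr8:78986102-78986251 on the plus strand and chr16:1419584-1419733 on the plus strand. Capitals mark the letters of a TATA box (TATAAA), a GC box (GGGCGG) and an AP-1 site (TGACTCA), each searched on both strands, so that TGAGTCA and CCGCCC are matches read on the other strand.
Anxa1: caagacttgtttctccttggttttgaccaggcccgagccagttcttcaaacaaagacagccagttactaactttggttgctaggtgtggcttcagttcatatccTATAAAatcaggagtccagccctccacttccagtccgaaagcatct
Anxa2: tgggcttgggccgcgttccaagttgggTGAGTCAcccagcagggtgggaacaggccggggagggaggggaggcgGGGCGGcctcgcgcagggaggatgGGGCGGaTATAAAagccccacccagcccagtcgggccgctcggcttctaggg
Anxa11: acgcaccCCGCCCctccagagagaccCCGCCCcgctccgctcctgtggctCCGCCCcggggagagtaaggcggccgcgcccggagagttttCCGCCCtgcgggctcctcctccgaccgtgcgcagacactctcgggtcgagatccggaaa
The letters of a TATA box were found in 2 of the 9 annexin windows, those of Anxa1, with its first base at -46, and Anxa2, at -45. They were found in 8.0% of 33469 windows of the same length. A GC box was found in 5 of the 9 windows, against 26.0% of all windows. The 4 matches of Anxa11 and the 2 of Anxa2 were of this kind, and Anxa1 had no match. The AP-1 letters were found only in the window of Anxa2 among the 9, at -123, and in 2.38% of all windows. The window of Anxa1 had 46.7% G and C, that of Anxa2 had 70.7% and that of Anxa11 had 72.7%, where the median of all windows was 52.7%. The matches printed do not overlap each other, and a match is a description of the sequence only.

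To compare one annexin with another, the FPKM values the authors deposited were used, which divide the count by the gene's length and the library's total. Anxa6 was the most abundant, with 48.0, 48.8 and 53.6 FPKM in t-PBS rats 1, 2 and 3 and 45.2, 55.3 and 51.5 FPKM in t-DHEA rats 1, 2 and 3. Anxa11, a protein that tethers RNA granules to lysosomes, followed with 29.5, 25.9 and 28.1 FPKM in t-PBS and 23.2, 29.6 and 28.2 FPKM in t-DHEA livers. These 2 genes together made up between 49.7% and 67.6% of the FPKM summed over the 10 genes in each liver. The highest share was in t-DHEA rat 2 and the lowest in t-PBS rat 2. In t-PBS livers the mean FPKM ran in the order Anxa6, Anxa11, Anxa5, Anxa4, Anxa2, Anxa3, Anxa1, Anxa7, Anxa8 and Anxa9. The ranges of Anxa4, Anxa2, Anxa3 and Anxa1 overlapped between neighbours in this order, so that these 4 genes were not separated beyond their spread. In t-DHEA livers Anxa1 stood at place 8 in place of 7, below Anxa7 in 3 of 3 livers, although the ranges of Anxa1 and Anxa7 overlapped. In t-PBS livers Anxa1 was above Anxa7 in 3 of 3 livers, and there the ranges did not overlap.

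The summed FPKM of the 10 genes was 145 ± 6.06 (SD, n = 3) in t-PBS and 127 ± 5.48 (SD, n = 3) in t-DHEA livers. Without Anxa6 and Anxa11 the sum was 66.9 ± 7.63 FPKM (SD, n = 3) in t-PBS and 49.6 ± 7.67 FPKM (SD, n = 3) in t-DHEA livers. The groups did not overlap in either sum, and the share of Anxa1 in the family was 6.46% to 8.24% in t-PBS and 1.95% to 4.24% in t-DHEA livers.

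**Figure D1:**
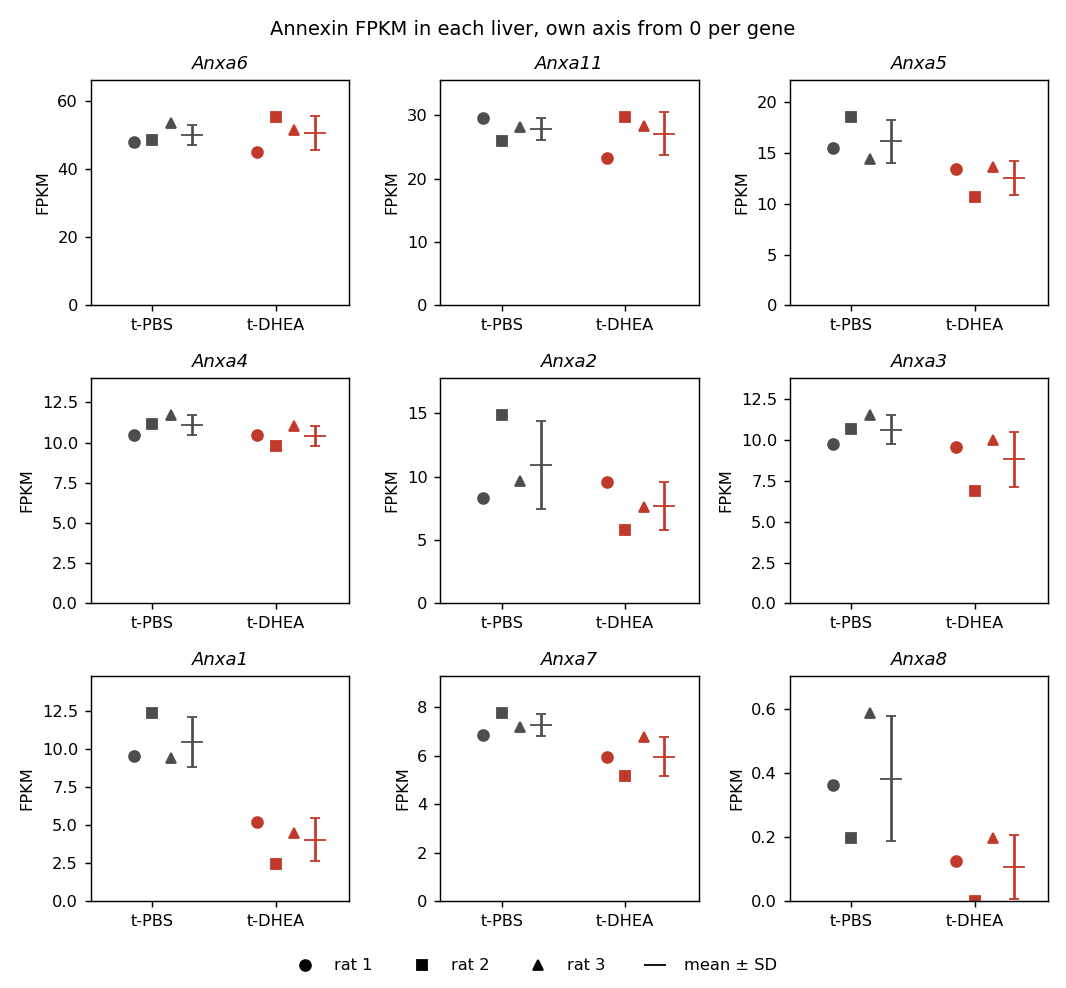
FPKM of 9 annexin genes (each with its own vertical axis from 0) in the 3 t-PBS and 3 t-DHEA livers; symbols are rats, and the bars to the right are mean ± SD. For Anxa1 the t-DHEA livers lie at 2.46 to 5.21 FPKM and the t-PBS livers at 9.45 to 12.4 FPKM, while the groups share one range for Anxa6 and Anxa11.

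Anxa1 lies on chromosome 1 of Rnor_6.0 from 237893966 to 237910012. It had 194, 228 and 177 counts in t-PBS rats 1, 2 and 3, and 91, 47 and 83 counts in t-DHEA rats 1, 2 and 3. In FPKM these were 9.58, 12.4 and 9.45 in t-PBS and 5.21, 2.46 and 4.48 in t-DHEA livers. Every t-DHEA liver was below every t-PBS liver, and the lowest t-PBS liver was 1.78-fold above the highest t-DHEA liver in CPM. The lowest of the 6 livers was t-DHEA rat 2 and the highest t-PBS rat 2. The fold difference was 2.52. With 1 liver left out at a time the log2 fold change ran from -1.56 to -1.07, the smallest being without t-DHEA rat 2. Anxa1 varied more over the 6 livers than 98.1% of the genes tested, by the root mean square of its centred log2 CPM.

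Anxa2, found on chromosome 8 between 75687100 and 75723594, had 163, 266 and 176 counts in t-PBS and 163, 108 and 137 counts in t-DHEA livers. In FPKM these were 8.27, 14.8 and 9.66 against 9.59, 5.80 and 7.61. The groups overlapped, since t-DHEA rat 1 was above t-PBS rat 1. The estimate, -0.47 on the log2 scale (standard error 0.24), was -0.21 with t-PBS rat 2 left out and -0.66 with t-DHEA rat 1 left out. The liver with the most Anxa2 was again t-PBS rat 2, and the one with the least t-DHEA rat 2.

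Anxa5, whose protein is used as a probe of dying cells, lies on chromosome 2 from 123162461 to 123193130. It had 343, 372 and 295 counts in t-PBS and 256, 222 and 275 counts in t-DHEA livers. The groups did not overlap, at 14.4 to 18.5 FPKM in t-PBS and 10.6 to 13.6 FPKM in t-DHEA livers. Between the nearest livers of the groups the difference was 1.05-fold in CPM. On the log2 scale the difference was -0.32 (standard error 0.13), and -0.21 without t-DHEA rat 2.

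Anxa7, or synexin, promotes the fusion of membranes and lies on chromosome 15 from 4254499 to 4281287. It had 183, 188 and 177 counts in t-PBS and 137, 130 and 165 counts in t-DHEA livers. The groups were separate by a ratio of only 1.01 in CPM between t-PBS rat 1 and t-DHEA rat 3. The estimated difference was -0.25 on the log2 scale (standard error 0.13), and -0.15 without t-DHEA rat 2.

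Anxa3, found on chromosome 14 between 14364008 and 14426437, had 558, 556 and 610 counts in t-PBS and 474, 373 and 522 counts in t-DHEA livers. Its groups overlapped in CPM, and t-DHEA rat 2 alone lay clearly below the other 5 livers, with 6.88 FPKM against 9.57 to 11.5 FPKM. The difference was -0.23 on the log2 scale (standard error 0.15), and -0.079 without that rat.

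Anxa4, an annexin of secretory epithelia on chromosome 4 from 118538777 to 118595580, was the steadiest member. Its 6 livers lay between 9.81 and 11.7 FPKM, and only 6.60% of the genes tested varied less. Its log2 fold change was -0.056 (standard error 0.10). Anxa6, on chromosome 10 from 40320581 to 40375605, had a log2 fold change of 0.052 (standard error 0.11). The locus AC093965.1 lies within that of Anxa6, with 179 to 207 counts in each liver beside 1466 to 1965 of Anxa6, and reads of the overlapping genes could have been split between them. Anxa11, on chromosome 16 from 3867208 to 3912148, had a log2 fold change of -0.0056 (standard error 0.12). Without 1 liver at a time, Anxa6 ranged from -0.011 to 0.12 and Anxa11 from -0.073 to 0.089, so neither kept a direction.

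Anxa8 and Anxa9 were not part of the count model. Anxa8, found on chromosome 16 between 10417185 and 10432393, had 10, 5 and 15 counts in t-PBS and 3, 0 and 5 counts in t-DHEA livers. The groups touched at 5 counts. Summed over livers there were 30 counts against 8, a ratio of 3.60 after the library totals were taken into account. Its 95% exact interval from 1.61 to 9.09 covers counting error only and leaves out the differences between rats. Anxa9, on chromosome 2 from 196470858 to 196479770, was listed at 0 in all 6 livers, where a count of 0 allowed up to 3 counts, or 0.210 to 0.243 CPM by liver. The remaining annexin genes of the table, which were not among the 10, were Anxa13 and Anxa10. Anxa13, an annexin of intestinal epithelium, had 18, 13 and 20 counts in t-PBS and 15, 23 and 20 counts in t-DHEA livers, with a log2 fold change of 0.27 (standard error 0.31). Anxa10 had 1 count in all, in t-DHEA rat 3.

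Over the 8 genes compared, the median log2 fold change was -0.24, where that of all 12210 genes tested was 0.0013. Below 0 were 7 of the 8, and 49.6% of all genes tested. The study's thresholds were p below 0.05 before adjustment with a fold-change of more than 1.2. At these, 2 of the 8 (Anxa1 and Anxa5) were called lower, where 2.98% of all genes tested were, and 0 were called higher, where 1.97% were, or 4.95% in either direction. The groups did not overlap, with t-DHEA lower, for 3 of the 8 (Anxa1, Anxa5 and Anxa7) and for 5.42% of all genes tested, and with t-DHEA higher for 0 of the 8 and for 4.66% of all genes. Because the genes were chosen with this contrast known, nothing is read from these counts. After Benjamini-Hochberg adjustment 0 of the 12210 genes had p below 0.05 by the quasi-likelihood test of edgeR, where 634 did before adjustment, and 24 did after adjustment by DESeq2. Among the genes called, 60.3% were lower in t-DHEA livers, and 73.1% with limma on log2(FPKM + 0.1).

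**Figure D2:**
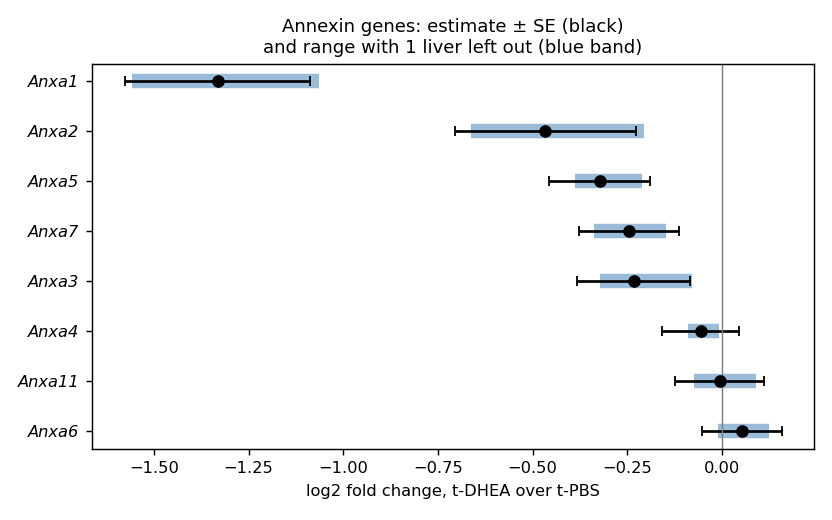
Log2 fold change of t-DHEA over t-PBS for the 8 annexin genes compared (horizontal axis), with its standard error in black and, as a blue band, the range of estimates with 1 liver left out. Anxa1 lies between -1.56 and -1.07 in every such estimate, and the bands of Anxa6 and Anxa11 cross 0.

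The livers did not differ alike in all members. In t-DHEA rat 2 the lowest CPM of the 6 livers was found for 6 of the 8 genes, namely Anxa1, Anxa2, Anxa3, Anxa4, Anxa5 and Anxa7, and the highest for the other genes, Anxa6 and Anxa11. In t-PBS rat 2 the highest CPM was found for 4 of the 8, which were Anxa1, Anxa2, Anxa5 and Anxa7. With t-DHEA rat 2 left out, Anxa1, Anxa2 and Anxa3 had log2 fold changes of -1.07, -0.30 and -0.079.

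The genes whose profiles were most like that of Anxa1 were sought by the root-mean-square distance between centred log2 CPM over the 6 livers, among 8457 other genes with a mean of at least 5 CPM. They were Adamts9, a matrix protease (distance 0.27), Lpl, the lipoprotein lipase (0.28), Cav1, the coat protein of caveolae (0.30), Ezr, which links membrane to actin (0.31), and Col12a1, a collagen (0.32). The nearest annexin to Anxa1 was Anxa2, at place 30 with a distance of 0.50. For Anxa2 the nearest genes were RT1-Da, an MHC class II chain (0.096), Loxl2, which cross-links collagen (0.098), Wls, needed for the secretion of Wnt proteins (0.12), Col5a1 (0.12) and Mnda (0.13). The nearest annexin to Anxa2 was Anxa5, at place 84 with a distance of 0.22. These distances share 6 libraries, and are a description without a test.

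The S100 proteins, small calcium-binding proteins of which several hold annexin tails, were read from 14 genes in the table, and 8 of them were tested. Of these, 1 was called lower and 1 higher at the study's thresholds, and the median log2 fold change was -0.16. Over all genes tested 2.98% were called lower and 1.97% higher, which is the background for this list and for those that follow. S100a11, the partner of annexin A1, had 33, 31 and 33 counts in t-PBS and 14, 14 and 12 counts in t-DHEA livers. In FPKM these were 7.76, 8.01 and 8.39 against 3.82, 3.48 and 3.09, so that the groups were far apart and the livers within each alike. Its log2 fold change was -1.17 (95% interval -1.77 to -0.58), with an adjusted p of 0.796 by the quasi-likelihood test of edgeR, which did not pass, although it met the study's unadjusted thresholds. S100a11 was called with each liver left out in turn, from -1.25 to -1.09. Its t-DHEA livers, at 14, 14 and 12 counts, were too close to be ranked, whereas Anxa1 was lowest in t-DHEA rat 2.

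S100a10, the partner of annexin A2, had 132, 154 and 131 counts in t-PBS and 119, 82 and 118 counts in t-DHEA livers. The log2 fold change of S100a10 was -0.28 (95% interval -0.72 to 0.15), a range that holds both 0 and the value of Anxa2. As for Anxa2, t-PBS rat 2 had the most counts and t-DHEA rat 2 the least. S100a6 had 48, 33 and 33 counts in t-PBS and 29, 12 and 20 in t-DHEA livers, with a log2 fold change of -0.79 and an interval from -1.59 to 0.019. S100a9, a protein of neutrophils, was higher, with 13, 7 and 9 counts in t-PBS and 24, 14 and 14 in t-DHEA livers and a log2 fold change of 0.94. Its call was lost with DESeq2 (0.96), and when t-DHEA rat 1 (0.59), t-PBS rat 2 (0.77) or t-PBS rat 3 (0.92) was left out.

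**Figure D3:**
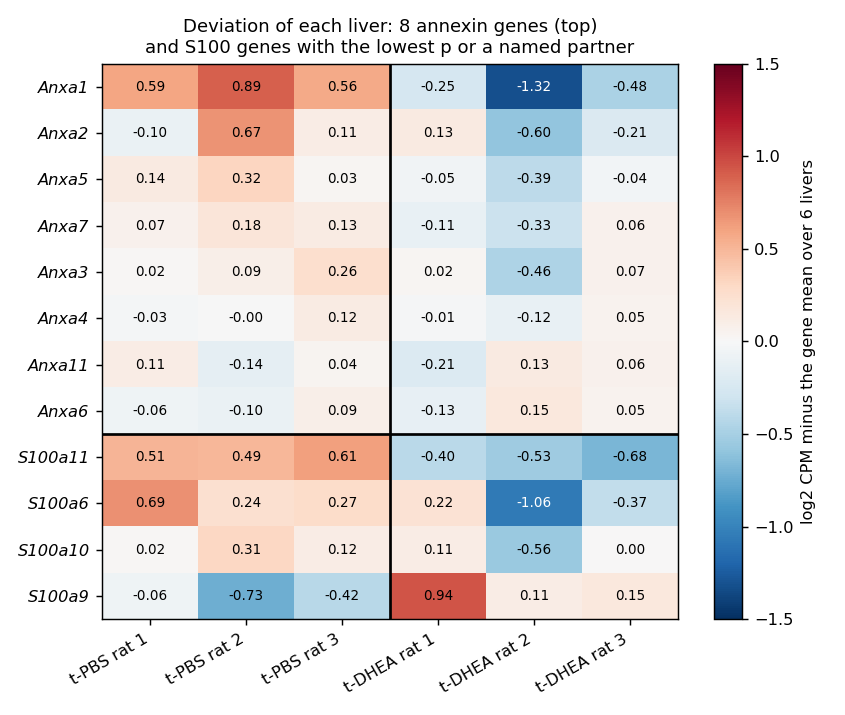
Centred log2 CPM (the value in a liver minus the gene's mean over the 6 livers, printed in each cell and coloured from blue, low, to red, high) of the 8 annexin genes, above the line, and of 4 S100 genes, below it. Anxa1 runs from 0.89 in t-PBS rat 2 to -1.32 in t-DHEA rat 2, and S100a11 lies between 0.49 and 0.61 in t-PBS and between -0.68 and -0.40 in t-DHEA livers.

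The formyl peptide receptors, through which annexin A1 acts, were hardly counted in these livers. Of 6 such genes, 4 were at 0 in every liver, Fpr1 among them, and Fpr2 had 0, 0 and 1 counts in t-PBS and 2, 1 and 0 in t-DHEA livers. Fpr3 had 1 count, in t-PBS rat 1. None was tested, and a difference was not detectable at this depth.

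For plasminogen activation, which annexin A2 serves, 9 of 11 genes were tested, and 0 were called lower and 1 higher, and the median was 0.057 on the log2 scale. The plasminogen receptor gene Plgrkt was the one called, with a log2 fold change of 0.61. It was called in 1 of the 6 fits that left out a liver, that without t-PBS rat 3 (0.83), and in the other 5 the value ran from 0.41 without t-PBS rat 1 to 0.67. The call of Plgrkt was also lost with DESeq2 (0.61) and with rat number as a block (0.62). Plat, the tissue activator, had a log2 fold change of -0.59 (interval -1.40 to 0.22).

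Among partners of annexins and of membrane repair, 17 of 19 genes were tested. Of these 4 were called lower, namely Cav1, Ehd2, Ahnak and Ptrf, and 0 higher, with a median of -0.12. Cav1 and Ehd2, both of caveolae, had log2 fold changes of -1.02 (standard error 0.28) and -0.86 (standard error 0.27) and were called with each liver left out. Ptrf, also of caveolae, had one of -0.46, and was not called if t-DHEA rat 2 (-0.41), t-DHEA rat 3 (-0.34) or t-PBS rat 2 (-0.30) was left out. With rat number as a block Ptrf was not called either (-0.46). Ahnak, a giant protein held by annexin A2 and S100A10, had one of -0.80, and lost its call without t-DHEA rat 2 (-0.60), t-DHEA rat 3 (-0.66) or t-PBS rat 2 (-0.56). Pdcd6 and Sri, which bind annexins A11 and A7, had values of -0.086 (interval -0.34 to 0.17) and -0.22 (interval -0.59 to 0.15).

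Of 24 entries for glucocorticoid-induced genes, all of them tested, 1 was called lower and 2 higher, and the median was 0.029. Tsc22d3, a widely used marker of glucocorticoid action, is listed under 2 identifiers, with log2 fold changes of 0.18 (interval -0.23 to 0.59) and 0.57 (interval -0.12 to 1.25). Tat, which degrades tyrosine, was higher by 0.68, with 6855, 7611 and 8225 counts in t-PBS and 7635, 13952 and 12842 in t-DHEA livers, and was called with each liver left out. Lcn2 had a log2 fold change of -1.07 and was also called in each such fit. Sds had one of 1.67, which was 0.59 without t-DHEA rat 3, and was not called without that rat or without any 1 of the 3 t-PBS rats. Nor was Sds called with DESeq2 (1.67) or with rat number as a block (1.17). With limma it was not called on log2(FPKM + 0.1) (1.05) or on log2(FPKM + 1) (1.02).

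**Figure D4:**
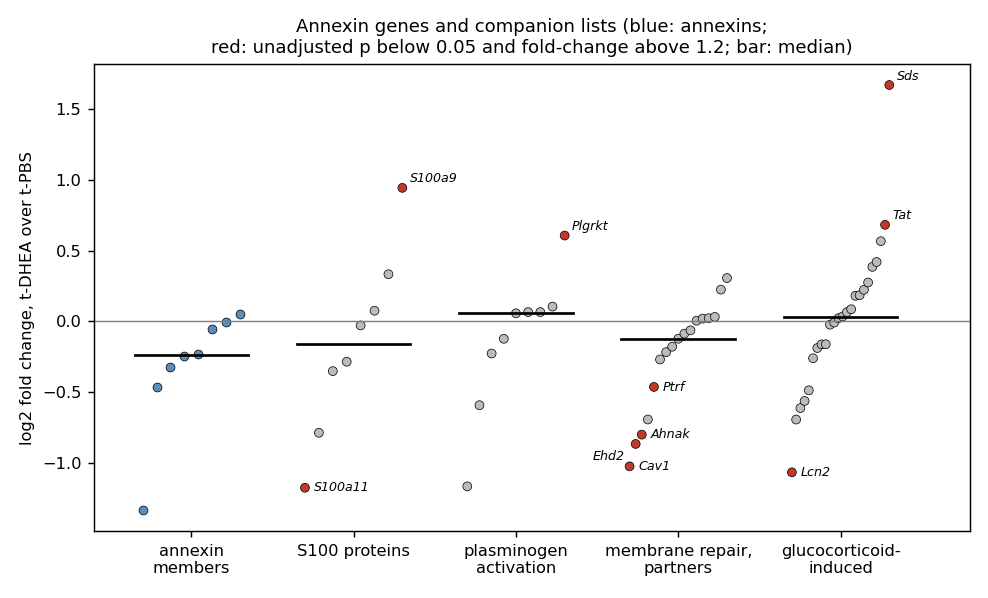
Log2 fold change of t-DHEA over t-PBS (vertical axis) for the 8 annexin genes (blue) and for the tested genes of 4 lists; red points met the study's thresholds and are named, grey points did not, and the bar is the median. The medians lie at -0.24 for the annexins, -0.16 for S100 proteins, 0.057 for plasminogen activation, -0.12 for membrane repair and partners and 0.029 for glucocorticoid-induced genes.

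Lists of cell type markers were read as well, and their summed FPKM separated the groups for some lists and overlapped for others. Of 10 mesothelial markers, genes of the liver capsule, 8 were tested and 6 were called lower, and their median log2 fold change was -1.63. The background for each marker list is the share over all genes tested, 2.98% called lower and 1.97% called higher. Msln, which encodes mesothelin, had 192, 198 and 217 counts in t-PBS and 42, 15 and 98 in t-DHEA livers, and Upk3b and Muc16 had log2 fold changes of -2.56 and -2.59. These 3 genes were called with each liver left out. The summed FPKM of all 10 mesothelial markers was 19.9, 23.3 and 21.1 in t-PBS and 9.83, 1.51 and 13.4 in t-DHEA livers. The liver with the lowest sum, t-DHEA rat 2, was the one with the lowest Anxa1, Anxa2, Anxa3, Anxa4, Anxa5 and Anxa7, and the highest sum, in t-PBS rat 2, went with the highest Anxa1, Anxa2, Anxa5 and Anxa7. The same livers were the extremes for 2 further lists. The cholangiocyte marker sum was highest in t-PBS rat 2 (21.6 FPKM) and lowest in t-DHEA rat 2 (11.1 FPKM). For stellate cell and fibroblast markers these sums were 156 and 93.3 FPKM. None of the other marker lists had both extremes in these livers. Between t-DHEA rats 1 and 3 the orders differed. Anxa1 was higher in rat 1, at 5.21 against 4.48 FPKM, and the mesothelial sum was lower there, at 9.83 against 13.4 FPKM. The cholangiocyte sum and the stellate cell and fibroblast sum were also lower in rat 1 than in rat 3. No mesothelial marker was at 0 in every liver. The part of these cells in the lower Anxa1 was not tested, and fewer cells of a type and less RNA per cell cannot be told apart in bulk tissue.

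Of 10 cholangiocyte markers 6 were tested and 2 called lower (Krt7 and Krt19), with a summed FPKM of 16.8 to 21.6 in t-PBS and 11.1 to 15.6 in t-DHEA livers. Krt19 was called with each liver left out. Krt7, with a log2 fold change of -2.16, lost its call with DESeq2 (-2.18), without t-DHEA rat 1 (-1.83) or if t-PBS rat 3 was left out (-1.87), and was -4.28 without t-DHEA rat 3. Stellate cell and fibroblast markers had a sum of 115 to 156 FPKM in t-PBS and 93.3 to 108 FPKM in t-DHEA livers, with 4 of 10 tested called lower, among them the collagen genes Col1a1 (-0.88) and Col3a1 (-0.40). Both lost their call without t-PBS rat 2, at -0.58 and -0.29, and Col3a1 also without t-DHEA rat 2 (-0.30). Markers of monocytes and neutrophils had a sum of 49.0 to 57.9 FPKM against 31.7 to 41.5 FPKM, with 2 of 5 tested called lower (Cd14 and Lyz2) and Mpo at 0 in every liver. S100a9, a protein of neutrophils that is not on this list, went the other way, with a log2 fold change of 0.94. Lyz2 was called with each liver left out, and Cd14 (-0.70) in 2 of the 6 such fits, its call being lost if t-DHEA rat 2 (-0.61), t-DHEA rat 3 (-0.72), t-PBS rat 1 (-0.63) or t-PBS rat 3 (-0.46) was left out. The part of these cells in the annexin values was likewise not tested. For Kupffer cell markers the sums overlapped, at 345 to 427 FPKM in t-PBS and 373 to 513 FPKM in t-DHEA livers, and 0 of 9 tested were called. They also overlapped for endothelial markers, at 73.0 to 112 against 93.2 to 104 FPKM with 1 of 9 called higher, and for lymphocyte markers, at 5.75 to 7.16 against 6.44 to 7.02 FPKM with 0 of 4 called. Red blood cell genes had a sum of 409 to 684 FPKM in t-PBS and 684 to 1378 FPKM in t-DHEA livers, with 4 of 5 called higher.

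**Figure D5:**
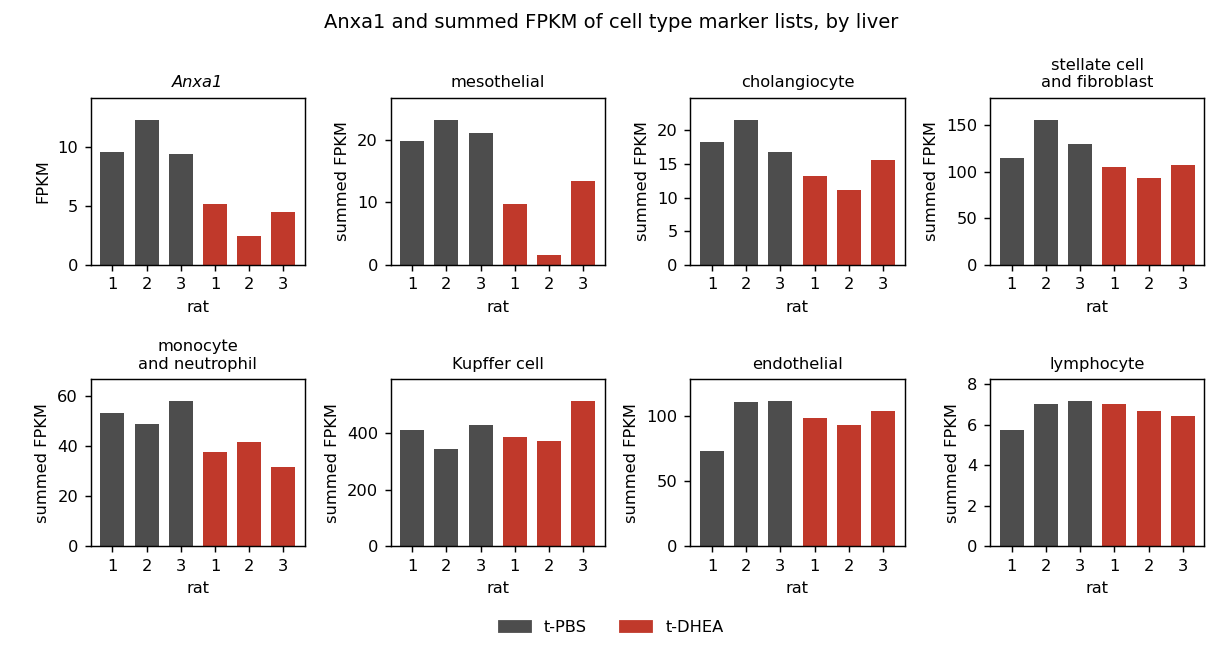
FPKM of Anxa1 and summed FPKM of 7 lists of cell type markers (vertical axes, bars from 0) in each liver, t-PBS rats 1 to 3 in grey and t-DHEA rats 1 to 3 in red. The sums of mesothelial (1.51 FPKM), cholangiocyte (11.1 FPKM) and stellate cell and fibroblast markers (93.3 FPKM) are lowest in t-DHEA rat 2, the liver with the least Anxa1. The sums of Kupffer cell, endothelial and lymphocyte markers overlap between the groups.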

How the data were processed

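Liver RNA of 3 t-PBS and 3 t-DHEA rats was sequenced in paired-end libraries. Per the methods and processing notes, the authors filtered the reads with Seqtk, mapped them to Rnor_6.0 with HISAT2 2.0.4 and counted fragments per gene with StringTie 1.3.0. They deposited raw counts, and FPKM values that equal each count divided by a fixed length and by the library total. The annotation release and strandedness are not given in the sources used here.

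The 10 members, the gene lists and the rules were chosen with earlier results of these data known. The counts were tested with edgeR 4.0.16 in R 4.3.3 (TMM factors, default filter, quasi-likelihood test, no block), and adjusted p-values are Benjamini-Hochberg values over 12210 genes. Standard errors come from the test statistic and treat the livers as independent, and intervals of log2 fold changes are 95% intervals. CPM are TMM-scaled. The study ran edgeR on FPKM, which was not done here. Of 164 list entries, 158 matched by symbol and 2 by an older symbol in RefSeq, and 4 did not match. The genes named were the members, known partners, up to 3 genes of lowest p per list, and the 5 nearest profiles to Anxa1 and Anxa2. A gene that this rule names is not reported here. Ptrf, and Pdcd6 and Sri, were named outside this rule after their values were seen. No library was a copy of another (chi-square over degrees of freedom was at least 15.3 for each pair). The alternatives were DESeq2 1.42.0, its size factors, other filters, limma 3.58.1 on log2 FPKM with a pseudocount of 0.1 or 1, a replicate block, a fold-change above 1.5 and each liver left out. The test was checked on simulated counts. Histology, serum and microbiota data were not analysed here.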

Additional observations from a re-analysis of the deposited data

How the results depend on the processing

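The count of annexin genes called lower was 2, and 1 with DESeq2, with the replicate block and at a fold-change above 1.5, where Anxa5 was the gene lost. It ran from 1 to 3 with 1 liver left out: Anxa5 lost its call without t-DHEA rat 2 (-0.21), t-PBS rat 1 (-0.34) or t-PBS rat 2 (-0.23), while Anxa2 gained one without t-DHEA rat 1 (-0.66) or t-PBS rat 1 (-0.62), and Anxa7 without t-DHEA rat 3 (-0.34). Anxa1 kept its call in every alternative run. These runs reuse the livers whose difference was known when the family was chosen, so this is a description and no test of Anxa1. Of the companion genes, 4 were called higher, and 2 with DESeq2 and with the replicate block, with 1 to 5 when 1 liver was left out. The 6 companion genes called lower and the 0 annexin genes called higher stayed within 1.5 times in all alternatives. Over all genes 604 were called, 275 at a fold-change above 1.5. Anxa6 turned to -0.011 without t-DHEA rat 2, within a range of -0.011 to 0.12, and Anxa11 to 0.0013 without the filter for low counts, and ran from -0.073 to 0.089 with 1 liver left out.

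Rat numbers gave no sign of pairing the livers: same-numbered livers deviated from their group means with correlations of -0.057, -0.059 and -0.055 across genes. No liver correlated best with its own number, and the replicate block gave 539 calls over all genes. The largest correlations were 0.11, 0.12 and 0.11, for t-PBS rats 1, 2 and 3 with t-DHEA rats 2, 3 and 1. Deviations from a mean of 3 livers cancel within a group, so these correlations are tied to each other and cannot settle a pairing. Depth limits Anxa8, Anxa9, Anxa10 and the formyl peptide receptors, which have few or no counts, and 3 livers per group limit the smaller differences of Anxa2, Anxa3, Anxa5 and Anxa7.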
